A study of Mus musculus with 6 samples.

Results

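S100 proteins are small calcium-binding proteins of vertebrates, built on the EF-hand fold, that mostly work as dimers and act by binding other proteins when calcium rises. Several of them associate with annexins, the cytoskeleton or membrane traffic, and some are released from cells and bind surface receptors. In liver, S100a4, S100a6, S100a10 and S100a11 are best known from non-parenchymal cells, bile ducts and injured or fibrotic tissue. The best-known member pair, S100a8 and S100a9, belongs to neutrophils and is left aside here except where set beside the others. The genes described are the 7 others whose symbols were given for this family, S100a1, S100a4, S100a6, S100a10, S100a11, S100a13 and S100a16, each with 1 probe among the 41174 non-control probes of the array. They were taken by gene name, from a list made with earlier results of these data known.

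The livers came from male C57BL/6J mice, an inbred laboratory strain, aged 20 weeks. From 8 weeks of age the mice of the CFD diet group (3 arrays) were kept for 12 weeks on an amino acid-defined, iron-supplemented diet with no choline, no folic acid and 0.17% methionine. The control group (3 arrays) had the same base diet, also rich in iron, with methionine raised to 0.4%, folic acid present at 2 mg/kg and choline bitartrate making up 0.3%. Total RNA was labelled with Cy3 and hybridised to Agilent whole-genome mouse arrays, and the comparison asks how liver expression differs after the deficient diet. Nothing in the labels says that the numbered replicates are separate mice, so each p-value speaks only of the scatter among these arrays, part of which may be technical.

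Each level below is the background-subtracted signal of a probe divided by the 75th percentile of its own array, so that a level of 1 is the brightness of a probe at that percentile. Levels of different probes cannot be set against each other, and each gene is compared only with itself. All 7 probes were well above background on all 6 arrays, and no spot was saturated. Between 23585 and 29044 probes were well above background on the CFD diet arrays and between 21689 and 26270 on the control arrays. Hepatocyte markers were bright in every liver, with summed levels of 1343 to 2196 on the CFD diet arrays and 2224 to 2663 on the control arrays. The whole liver was sampled, so more cells of a type and more RNA per cell cannot be told apart.

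The promoters are shown first, because the data below separate the 7 genes into some that were many times brighter after the CFD diet and a head-to-head pair that was dimmer. RefSeq's promoter table (GRCm38.p6) held 7 windows for 6 of the genes and was matched by symbol. Each window runs from 250 bases before an annotated start to 50 after it. The next 3 are those of S100a11, S100a4 and S100a6, whose levels differed most between the diets. Capitals mark matches, on either strand, to 4 of the 6 motifs searched. These are the AP-1 motif (TGANTCA), the TATA box (TATAAA), the GC box (GGGCGG) and the CCAAT box (spelled as named).
S100a11, chr3:93520246-93520545, plus strand: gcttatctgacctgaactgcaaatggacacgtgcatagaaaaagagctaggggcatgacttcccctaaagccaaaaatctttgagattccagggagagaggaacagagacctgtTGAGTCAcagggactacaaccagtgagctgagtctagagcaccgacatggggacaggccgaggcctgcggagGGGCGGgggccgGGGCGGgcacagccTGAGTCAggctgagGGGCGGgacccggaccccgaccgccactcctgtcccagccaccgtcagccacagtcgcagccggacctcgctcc
S100a4, chr3:90603520-90603819, plus strand: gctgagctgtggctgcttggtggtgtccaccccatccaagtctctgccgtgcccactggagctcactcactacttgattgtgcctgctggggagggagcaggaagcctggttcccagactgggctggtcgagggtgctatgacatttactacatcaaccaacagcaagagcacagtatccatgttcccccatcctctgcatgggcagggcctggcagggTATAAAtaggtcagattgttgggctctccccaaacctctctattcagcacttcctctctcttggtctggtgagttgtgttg
S100a6, chr3:90612644-90612943, plus strand: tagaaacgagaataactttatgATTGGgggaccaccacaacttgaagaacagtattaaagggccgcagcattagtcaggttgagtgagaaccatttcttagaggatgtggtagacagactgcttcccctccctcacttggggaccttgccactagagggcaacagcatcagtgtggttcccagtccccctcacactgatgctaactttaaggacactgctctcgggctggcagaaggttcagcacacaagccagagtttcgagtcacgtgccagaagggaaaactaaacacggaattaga

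The S100a11 window holds TGAGTCA at 2 places, which end 129 and 31 bases before the start, and GGGCGG at 3 places. The S100a4 window has TATAAA ending 25 bases before the start, and the S100a6 window has a CCAAT on the minus strand. Among all 32851 windows of the table, 7.81% hold TGANTCA, 13.6% TATAAA, 35.7% GGGCGG and 37.4% CCAAT. Of the 7 windows of these genes, 2 hold TGANTCA, those of S100a11 and the downstream start of S100a16. Of the same windows, 1 holds TATAAA, 2 hold GGGCGG (S100a11 and the same S100a16 start) and 1 holds CCAAT. The other motifs searched, GGAATG (TEAD; 14.7% of all windows) and the CArG box (1.63%), were in 0 of the 7. These are matches of letters and not measured sites.

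S100a1 and S100a13 are transcribed away from each other, and their windows share 204 bases. The shared stretch is printed along the plus strand with the bases between the annotated starts, and the start bases themselves, in capitals. S100a1 reads leftward from the left edge of the capitals and S100a13 rightward from their right edge.
S100a1 and S100a13 shared, chr3:90514281-90514484, plus strand: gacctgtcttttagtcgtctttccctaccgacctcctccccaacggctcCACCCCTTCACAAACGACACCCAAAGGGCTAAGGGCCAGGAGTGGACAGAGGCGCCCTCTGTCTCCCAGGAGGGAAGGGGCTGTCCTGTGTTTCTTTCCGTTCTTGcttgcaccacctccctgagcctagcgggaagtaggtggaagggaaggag

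The 7 genes differed in direction and in size. S100a4, S100a11 and S100a6 were 9.92 to 14.9 times higher in the CFD diet livers, S100a10 was 1.61 times higher, S100a1 and S100a13 were lower, and S100a16 did not pass the test. By limma, with p-values adjusted over 23482 tested probes and a call at an adjusted p below 0.05, 4 of the 7 genes rose and 2 fell. Over all tested probes, 22.1% were called higher and 27.6% lower, 49.7% in all. At least 2-fold rises were called for 3 of the 7 genes and for 13.4% of all tested probes. All CFD diet arrays lay above all control arrays for 4 of the 7 genes and for 26.6% of all tested probes. The median log2 fold change was 0.69 over the 7 genes, against -0.12 over all tested probes. Scaling to the array median lowered the median over all tested probes to -0.33 and moved the split of all calls to 3984 higher and 8866 lower, against 5193 higher and 6476 lower in the scaling used here, so directions are relative to the scaling. Under median scaling, quantile normalization and the 75th percentile, the 7 genes kept their directions.

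**Figure D1:**
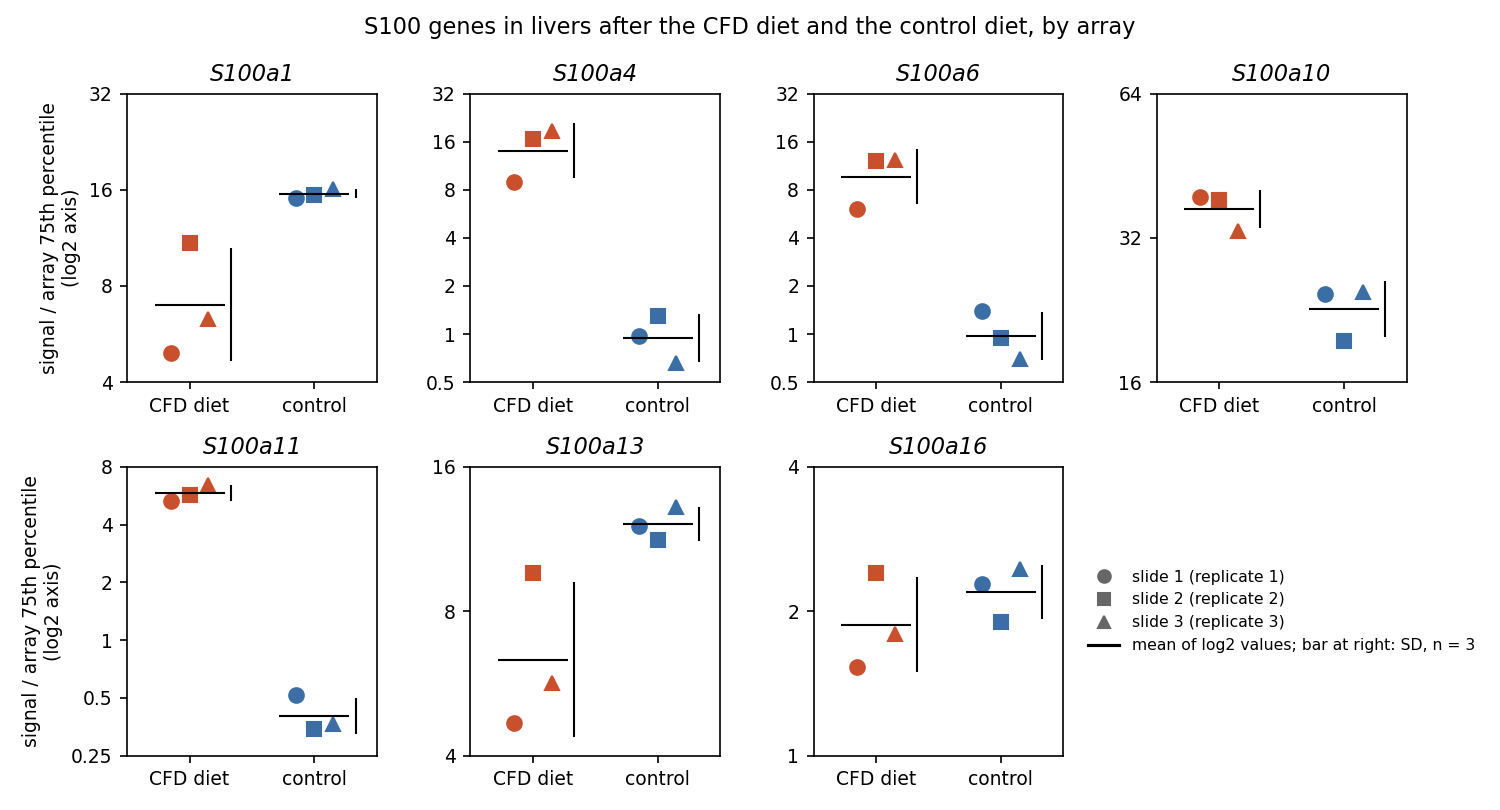
Level of each S100 gene on each array, as the signal divided by the array's 75th percentile on a log2 axis, with CFD diet at left and control at right of each panel; symbols give the slide, the horizontal line the mean of the log2 values and the vertical bar their SD (n = 3 each). The groups do not overlap for S100a4, S100a6, S100a10 and S100a11, which are higher after the CFD diet, nor for S100a1 and S100a13, which are lower, and they overlap for S100a16. Of all tested probes, 27.6% were called lower, and the share with all CFD diet arrays below all control arrays was not taken.

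S100a4, also called metastasin or fibroblast-specific protein, binds non-muscle myosin and is made by fibroblasts, macrophages and other motile cells. Its levels were 8.90, 16.5 and 18.7 on CFD diet arrays 1 to 3, against 0.978, 1.30 and 0.656 on control arrays 1 to 3. Every CFD diet value lay far above every control value, and array 1 was the lowest of the CFD diet group. The means were 14.7 ± 5.16 in CFD diet livers and 0.979 ± 0.323 in control livers (SD, n = 3 each). On the log2 scale S100a4 rose by 3.89 ± 0.35 (SE; adjusted p by limma = 0.000406), or 14.9-fold. Of all tested probes, 0.967% had a rise at least as large.

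S100a11, or calgizzarin, binds annexin A1 and takes part in membrane repair and keratinocyte growth control. Its levels were 5.34, 5.75 and 6.45 on the CFD diet arrays, against 0.516, 0.346 and 0.366 on the control arrays. Among S100a4, S100a6 and S100a11, it had the tightest CFD diet group, with an SD of 0.14 on the log2 scale against 0.57 for S100a4 and 0.58 for S100a6. S100a11 rose by 3.86 ± 0.18 on the log2 scale (adjusted p by limma = 7.09e-05), or 14.5-fold.

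Probes elsewhere on the array bear on S100a11. A probe named NAP103812-1 in the files, 66 bases from the S100a11 probe in build mm7, had levels of 11.2, 15.1 and 14.4 on the CFD diet arrays and 1.07, 0.786 and 0.999 on the control arrays, a log2 fold change of 3.83 ± 0.18 (adjusted p by limma = 7.04e-05). A probe for LOC670046, a predicted locus that the files describe as similar to S100a11, had levels of 4.66, 4.50 and 5.03 against 0.434, 0.277 and 0.282 in controls, a log2 fold change of 3.87 ± 0.20 (adjusted p by limma = 8.82e-05). Transcripts of near-identical copies cannot be told apart by hybridisation, and how the signals divide between copies is not known.

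S100a6, or calcyclin, binds the calcyclin-binding protein Cacybp and annexins and is common in fibroblasts and epithelial cells. Its levels were 6.10, 12.1 and 12.2 on the CFD diet arrays, against 1.40, 0.949 and 0.696 on the control arrays. The groups were far apart, and slide 1 held both the lowest CFD diet value and the highest control value. S100a6 rose by 3.31 ± 0.35 on the log2 scale (adjusted p by limma = 0.000727), or 9.92-fold. Within slides 1, 2 and 3 it differed by 2.12, 3.68 and 4.13.

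S100a10 is the family member that does not need calcium to adopt its active shape, and it forms a complex with annexin A2 that binds plasminogen at the cell surface. Its levels were 38.9, 38.4 and 33.1 on the CFD diet arrays, against 24.4, 19.5 and 24.7 on the control arrays. The groups did not overlap, but the gap was small beside those of S100a4, S100a6 and S100a11. S100a10 rose by 0.69 ± 0.15 on the log2 scale (adjusted p by limma = 0.00857), or 1.61-fold, and 18.3% of all tested probes rose at least as much. The value was 0.49 after median scaling (adjusted p by limma = 0.0477) and 1.09 after quantile normalization.

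S100a1 and S100a13 fell together. S100a1, best known from heart and skeletal muscle, where it regulates calcium release channels, had levels of 4.94, 10.9 and 6.30 on the CFD diet arrays, against 15.1, 15.4 and 16.1 on the control arrays. S100a13, which takes part in the release of fibroblast growth factor Fgf1 and interleukin Il1a from cells, had levels of 4.69, 9.61 and 5.67 on the CFD diet arrays, against 12.0, 11.3 and 13.2 on the control arrays. For both genes the control values were close together, the CFD diet values were spread, and CFD diet array 2 lay nearest to the controls.

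The log2 fold change was -1.15 ± 0.28 for S100a1 (adjusted p by limma = 0.0139), 2.23 times lower in the CFD diet livers. It was -0.94 ± 0.26 for S100a13 (adjusted p by limma = 0.0241), 1.92 times lower. Within slides 1, 2 and 3, S100a1 differed by -1.61, -0.50 and -1.36, and S100a13 by -1.36, -0.23 and -1.22. The call of S100a13 ended when any array except CFD diet 2 was left out (adjusted p by limma = 0.0503 to 0.0821), and that of S100a1 ended without CFD diet 3 (adjusted p by limma = 0.0529). Without a filter on dim probes, which brings 41174 probes into the fit, both calls ended (adjusted p by limma = 0.0557 for S100a1 and 0.0840 for S100a13).

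Centred on their own control means, the profiles of S100a1 and S100a13 over the 6 arrays differed by 0.14 log2 units on average, the smallest difference among the 21 pairs of these genes. The next smallest were 0.39 for S100a13 with S100a16 and 0.39 for S100a6 with S100a11. Genes outside the family lay nearer to each of the pair, such as Ccdc58 at 0.04 from S100a1 and Nme3 at 0.03 from S100a13. The likeness is therefore not particular to the pair. These distances over 6 arrays are a description.

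S100a16, a broadly expressed member, did not pass the test. Its levels were 1.53, 2.40 and 1.80 on the CFD diet arrays, against 2.28, 1.90 and 2.45 on the control arrays, and the groups overlapped. The log2 fold change was -0.23 ± 0.20 (adjusted p by limma = 0.369). Within slides it differed by -0.57, 0.34 and -0.44. As with S100a1 and S100a13, CFD diet array 2 held the highest scaled level of its group.

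**Figure D2:**
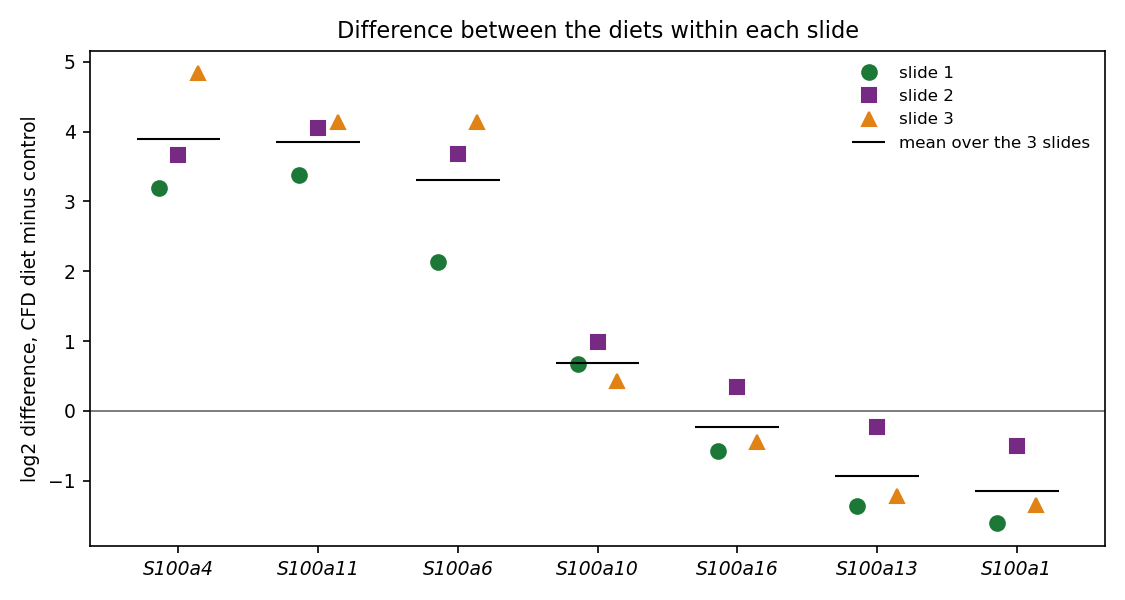
Difference between the CFD diet array and the control array of each slide on the log2 scale for each S100 gene, with the mean over the 3 slides as a line. S100a4, S100a6, S100a10 and S100a11 are above 0 and S100a1 and S100a13 below 0 on all 3 slides, while S100a16 is at 0.34 on slide 2 and below 0 on slides 1 and 3.

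The summed level of 9 hepatocyte markers, like the levels of S100a1, S100a13 and S100a16, was highest on array 2 within the CFD diet group. It was 1343, 2196 and 1386 on CFD diet arrays 1 to 3, against 2224, 2663 and 2592 on control arrays 1 to 3. CFD diet array 2 also had the smallest divisor of its group, with 75th percentiles of 617.8, 404.1 and 670.2 on arrays 1 to 3. Before division S100a16 read 946, 969 and 1204, highest on array 3. S100a13 read 2895, 3881 and 3803, and S100a1 read 3054, 4416 and 4223. The part of the scaling in this pattern was not tested. Of the 9 hepatocyte markers, 5 fell, 0 rose and 4 did not pass, with Apoa1 (-1.04 ± 0.27) and Pck1 (-1.03 ± 0.18) the most changed. Alb, the brightest of the list, did not pass (-0.49 ± 0.26). After quantile normalization Apoa1 changed by -0.39 and did not pass, and Pck1 changed by -0.52. With 1 probe per gene, 23.6% of all tested genes were called higher and 27.2% lower. The part of hepatocyte content in the values of S100a1 and S100a13 was not tested.

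Several marker lists of other cells were called mostly higher, as were S100a4, S100a6 and S100a11. The tested neutrophil markers, given in the next paragraph, are among them. Of 10 cholangiocyte markers, 9 rose and 0 fell, and their summed level was 90.8 to 126 in CFD diet livers, against 6.51 to 9.71 in control livers, most of it from Spp1. Epcam, Cldn4, Cftr and Muc1 passed the filter only through the CFD diet arrays, which favours a rise. Epcam (4.55 ± 0.29) reached a level well above background on only 1 of the control arrays. Cldn4, above background on no control array, was at least 3.47-fold higher (less with normexp). Of 10 stellate cell and fibroblast markers, 9 rose and 0 fell, with sums of 198 to 229.6 in CFD diet livers and 73.5 to 84.3 in control livers. Most of these sums came from Dcn, and Col1a1 (3.64 ± 0.25) and Col3a1 (3.01 ± 0.24) were the most changed. Of 10 macrophage and Kupffer cell markers, 6 rose and 2 fell, with sums of 381.1 to 528.2 in CFD diet livers, most of it from Lyz2, and 162.2 to 229.1 in control livers. Itgam (3.87 ± 0.45, well above background on 1 control array and tested only through the CFD diet arrays) and Cd68 (2.58 ± 0.17) changed most there. Clec4f (-0.73 ± 0.21) and Timd4 (-1.80 ± 0.55) fell, and Vsig4 and Cd5l did not pass. The part of these cell types, or of neutrophils, in the rises of S100a4, S100a6 and S100a11 was not tested.

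Lists for other cells followed no one direction, and the shares of all tested genes called, 23.6% higher and 27.2% lower, apply to their counts too. Neutrophil markers summed to 0.639 to 0.856 in CFD diet livers and 0.192 to 0.259 in control livers. Of the 9 on the array, 4 were tested and rose. Of these, Mmp8, Cxcr2 and Retnlg passed the filter only through the CFD diet arrays, which favours a rise. Csf3r, well above background on all control arrays, rose by 0.95 ± 0.23. Mmp8 was at least 4.20-fold higher (less with normexp), and Retnlg rose by 2.96 ± 0.14, with 1 control array well above background. Ngp and Camp were above background on no array. Of 9 tested lymphocyte markers, 2 fell and 0 rose, close to the share of all genes called lower, with sums of 0.920 to 1.30 in CFD diet livers and 1.19 to 1.61 in control livers. Ms4a1 (-0.81 ± 0.30) did not pass. Of 10 endothelial markers, 5 fell and 1 rose, with sums of 29.4 to 38.5 in CFD diet livers and 44.6 to 48.1 in control livers. Lyve1 rose by 1.74 ± 0.18 and Kdr changed by -1.14 ± 0.14. Of 5 tested muscle markers, 3 rose, with sums of 0.885 to 0.979 in CFD diet livers and 0.568 to 0.666 in control livers. Acta1 and Cnn1 passed the filter only through the CFD diet arrays. Acta1 was at least 2.97-fold higher (less with normexp) and Cnn1, well above background on 1 control array, had a log2 fold change of 1.25 ± 0.42. Its call was lost in 9 of 15 alternatives, normexp among them (0.32), so the count of 3 depends on the setting. The listed genes of striated muscle, where S100a1 is best known, were not all dim. Ckm, Myl1, Mb and Actn2 were above background on no array. Acta1 and Tnnc2 were well above background on all 3 CFD diet arrays. Tnnc2, also well above background on 1 control array, did not pass (0.06 ± 0.22). Tnnt3 was well above background on 2 arrays of each group. Of 5 tested red blood cell markers, 3 fell and 0 rose, with sums of 79.8 to 145 in CFD diet livers and 147 to 209 in control livers. Those that fell include Klf1 (-1.89 ± 0.39, or -1.04 with normexp) and Alas2 (-1.61 ± 0.30).

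On the chromosome, the 7 genes lie in 2 groups on mouse chromosome 3. In build mm7, which the scanner files use, the probe of S100a1 lies at chr3:90642309-90642368 on the minus strand. On the plus strand follow those of S100a13 (chr3:90647126-90655132, a span that includes an intron), S100a16 (chr3:90672469-90672528), S100a4 (chr3:90736122-90736182) and S100a6 (chr3:90744440-90744499). The probes of S100a11 (chr3:93627811-93627870) and S100a10 (chr3:93666231-93666290) lie 2883.3 kb further on and 38.4 kb apart.

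Neighbours in this row did not move alike. S100a4 and S100a6, whose probes are 8.3 kb apart, both rose more than 9-fold. S100a16 lies 17.3 kb from S100a13 and 63.6 kb from S100a4 and passed in neither direction. S100a10 and S100a11, 38.4 kb apart, had log2 fold changes of 0.69 ± 0.15 and 3.86 ± 0.18. Among probes without an S100 name within 250 kb of any of the 7 probes, 16 were tested, and 4 of these (25%) were called higher, against 22.1% of all tested probes, and 2 lower. The 4 include NAP103812-1, 66 bases from the S100a11 probe. Whether it reads S100a11 itself was not tested, and without it the share called higher would be lower. Their median log2 fold change was 0.11. Among those called, only NAP103812-1, described above, changed at least 2-fold.

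**Figure D3:**
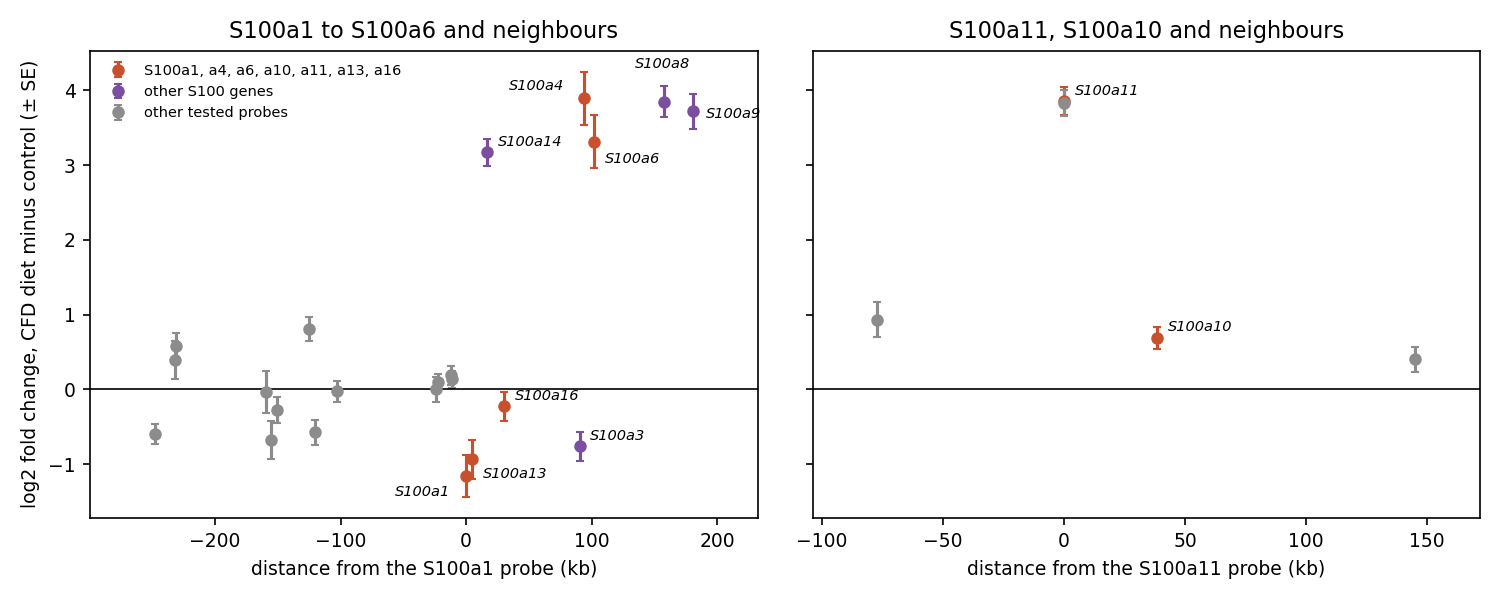
Log2 fold change (CFD diet minus control, ± SE) of tested probes by distance in kb from the S100a1 probe (left) or the S100a11 probe (right), with probes within 250 kb of the 7 genes in grey or purple. S100a4, S100a6, S100a14, S100a8 and S100a9 lie above 3 (S100a14 against control signals at background) and S100a1, S100a13, S100a16 and S100a3 below 0, while the grey probes, except NAP103812-1 beside S100a11, lie between -1 and 1.

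Other S100-named genes also moved in both directions. Of 9 listed besides the neutrophil pair, 7 were on the array, 4 were tested, 2 rose, 1 fell and 1 did not pass. The 2 that rose, S100g and S100a14, passed the filter only through the CFD diet arrays, which favours a rise. S100g, the vitamin D-dependent calbindin of intestine and kidney, had levels of 2.27, 2.11 and 1.06 on the CFD diet arrays, against 0.0400, 0.0095 and 0.0079 on the control arrays. Its log2 fold change of 6.90 ± 0.63 (adjusted p by limma = 0.000431) rests on controls of which 1 array was well above background. With normexp background correction it was 3.60, and without control replicate 1 it was 7.63. S100a14, an epithelial member between S100a13 and S100a16, was above background on no control array. It was at least 3.59-fold higher by the floor used for bounds, but with normexp its log2 fold change was 0.72. S100a3, known from hair follicles, changed by -0.76 ± 0.19 (adjusted p by limma = 0.0159), with dim levels of 0.0287, 0.0350 and 0.0335 on the CFD diet arrays and 0.0560, 0.0432 and 0.0682 on the control arrays. Its call ended with normexp (-0.14), without the filter on dim probes and without control replicate 3. S100pbp, named for binding S100P, did not pass (-0.26 ± 0.12), and it passed downward after median scaling (-0.46).

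S100a8 and S100a9, whose products form calprotectin, rose by 3.85 ± 0.21 and 3.72 ± 0.23 on the log2 scale (adjusted p by limma = 9.39e-05 and 0.000122). S100a8 had levels of 1.61, 1.34 and 1.79 on the CFD diet arrays, against 0.0949, 0.144 and 0.0949 on the control arrays. The values of S100a4, S100a11, S100a8 and S100a9 thus lay between 3.72 and 3.89, each with an SE of 0.18 to 0.35, and the differences among them were not tested. With normexp they were 3.70 for S100a4, 3.36 for S100a11, 2.59 for S100a8 and 3.59 for S100a9.

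**Figure D4:**
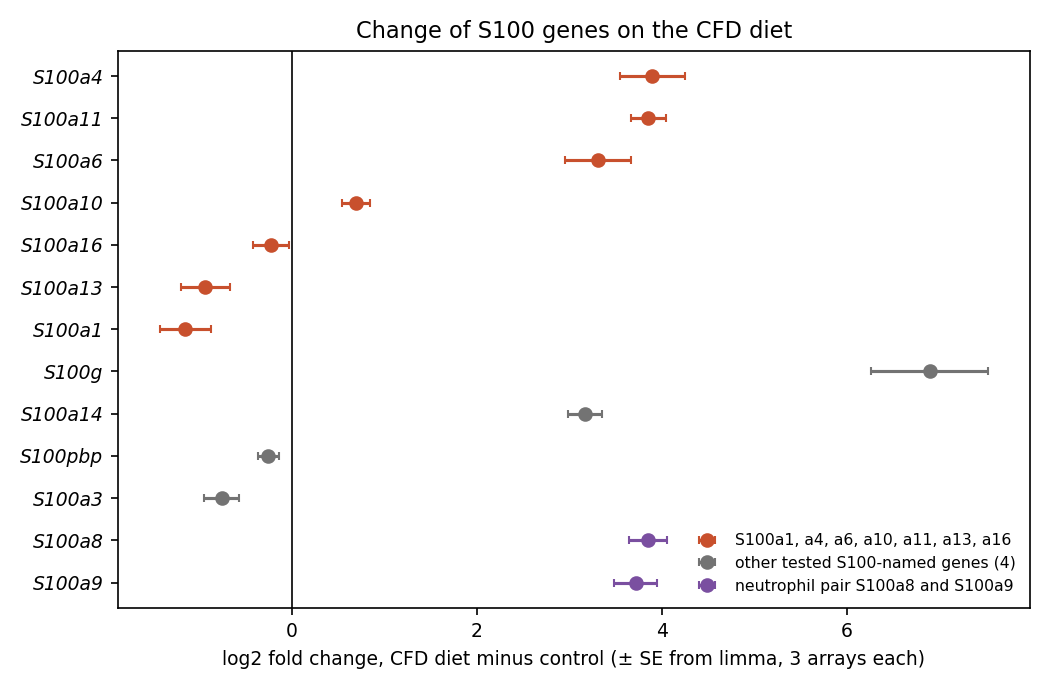
Log2 fold change (CFD diet minus control, ± SE from limma, 3 arrays each) of the 7 S100 genes, the 4 other tested S100-named genes and S100a8 and S100a9. S100a4, S100a11 and S100a6 lie between 3.31 and 3.89, beside S100a8 and S100a9, and S100a1, S100a13 and S100a16 lie below 0; the points of S100g and S100a14 rest on control signals mostly at background.

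Binding partners and receptors of S100 proteins were taken from a list of 30 genes. Of 29 tested, 12 rose, 5 fell and 12 did not pass, where 23.6% of all tested genes were called higher and 27.2% lower. The median log2 fold change was 0.12 over the list, against -0.11 over all tested genes. Genes that work with S100a10 at the cell surface were called in both directions, and the differences from S100a10 were not tested. Anxa2, its partner in the plasminogen-binding complex, had levels of 20.3, 16.6 and 20.1 on the CFD diet arrays, against 1.39, 1.00 and 0.911 on the control arrays, and rose by 4.13 ± 0.19 (adjusted p by limma = 6.95e-05). Plat, the tissue plasminogen activator, rose by 4.43 ± 0.18 and Plaur, the receptor of urokinase, by 4.18 ± 0.17, and with normexp by 3.34 for Plat and 2.90 for Plaur. Plau, which encodes urokinase, was above background on no control array and was at least 3.39-fold higher, with a log2 value of 0.68 under normexp, beside 0.67 for S100a10. Plg, the plasminogen made by hepatocytes, changed by -1.48 ± 0.22 (adjusted p by limma = 0.00235).

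Genes linked to S100a13 in protein release moved in both directions, Fgf1 and Syt1 down and Il1a up. Fgf1, the growth factor it helps to export, had levels of 0.378, 0.808 and 0.325 on the CFD diet arrays, against 2.08, 1.60 and 2.05 on the control arrays, and changed by -2.04 ± 0.34 (adjusted p by limma = 0.00364). Syt1, which encodes the synaptotagmin of the same release complex, changed by -1.90 ± 0.37 (adjusted p by limma = 0.00620). CFD diet array 2 again held the highest scaled level of its group for both genes. Il1a, the other cargo, rose by 0.59 ± 0.11 at dim levels of 0.0743, 0.0779 and 0.0790 on the CFD diet arrays and 0.0522, 0.0479 and 0.0538 on the control arrays. Its dependence on the background correction was not tested.

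Anxa1, a partner of S100a11, rose by 3.28 ± 0.19 (adjusted p by limma = 0.000101). Anxa5, another annexin, rose by 1.26 ± 0.17, whereas Anxa11, a partner of S100a6, changed by -0.61 ± 0.14 and Anxa6 by 0.04 ± 0.13 without passing. Cacybp and Sugt1, which bind S100a6, did not pass (-0.11 ± 0.14 and -0.15 ± 0.15). Myh9, the non-muscle myosin heavy chain bound by S100a4, rose by 0.46 ± 0.15 and Ppfibp1 by 0.68 ± 0.13. Tlr4, a receptor of S100a8 and S100a9, rose by 1.18 ± 0.20 (0.54 with normexp) and the leukocyte gene Ptprc by 1.39 ± 0.27. Ager, the receptor for several S100 proteins, was well above background on 1 control array and did not pass (0.04 ± 1.18). Probes of Ahnak disagreed, since its brightest probe did not pass (-0.49 ± 0.23) while 4 of its 5 tested probes were called higher. At least 1 other probe was also called higher for Anxa6, Sugt1, Ryr1 and Sptbn1, whose brightest probes did not pass. For Ryr1, 2 of 3 tested probes were called higher. Both were well above background on no control array and passed the filter only through the CFD diet arrays. With the background subtraction used here they were at least 6.47-fold and 6.61-fold higher.

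**Figure D5:**
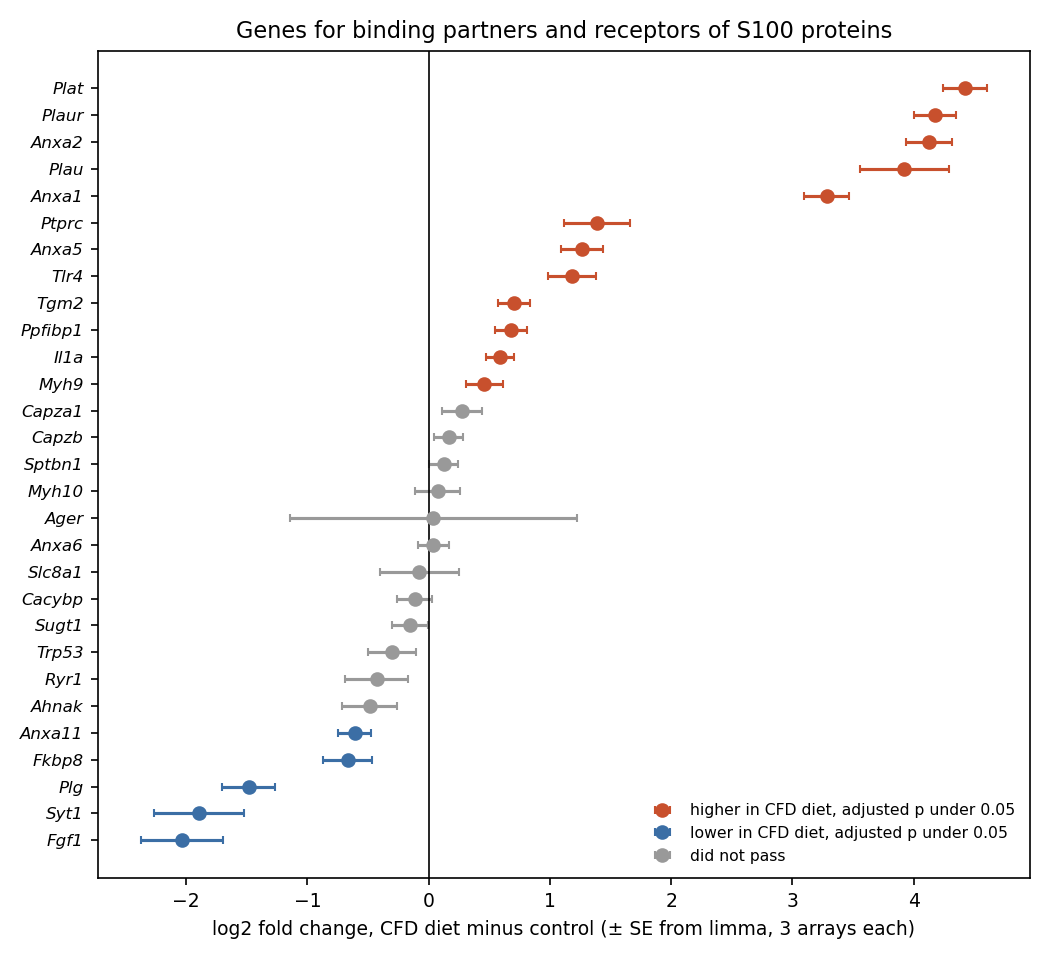
Log2 fold change (CFD diet minus control, ± SE from limma, 3 arrays each) of the 29 tested genes for partners and receptors of S100 proteins, by the brightest tested probe of each. Plat, Plaur, Anxa2, Plau and Anxa1 lie above 3, Plg, Syt1 and Fgf1 below -1, and 12 genes in grey did not pass; the point of Plau rests on control signals at background.

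The genes with profiles most like each of the 7 were found by the average absolute difference over the 6 arrays, each profile centred on its control mean, among 15870 other genes. Nearest to S100a1 were Ccdc58 and Msrb1 (0.04 and 0.05 log2 units), and nearest to S100a13 were Nme3 and Hint3 (0.03 and 0.04). Nearest to S100a4 were Ltbp2, a matrix protein that binds fibrillin, and Fhl2, a LIM-domain protein (0.18 and 0.20), and nearest to S100a6 were Bcl2a1c and the transcript BF472673 (0.16 and 0.19). Nearest to S100a11 were the S100a11-like LOC670046 and Ehf, an epithelial transcription factor of the ETS family (0.05 and 0.08). Ehf was not well above background on every array, so its likeness depends on the background subtraction used here. With normexp, whose values are given below, the changes of Ltbp2, Fhl2, Bcl2a1c, BF472673 and, most of all, Ehf were smaller. Plin2, the coat protein of lipid droplets, and Morf4l2 were nearest to S100a10 (0.05 and 0.06), and Pfpl and Nupr1l to S100a16 (0.04 and 0.05).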

How the data were processed

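The deposited scanner files hold intensity values, 1 Cy3 array each, background-subtracted by Agilent Feature Extraction (version 10.5.1.1 per the file headers, 10.7 per the submitters' processing notes). The deposited value table also holds intensity, linear, with each column's 75th percentile near 1000. Its columns match, by rank, another replicate of the same group, so replicate numbers follow the scanner files. Which numbering was intended is unknown, and 0 columns were left unmapped. Column medians were 72.7, 73.9 and 80.6 for CFD diet and 68.0, 61.5 and 67.6 for control.

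Signals were divided by each array's 75th percentile over non-control spots and put on the log2 scale. Spots flagged as outliers were dropped and repeat spots averaged. A probe was tested if well above background on all 3 arrays of a group (23482 probes). A probe dim in controls could enter only through the CFD diet group, so the filter favours rises among such probes. CFD diet was set against control with limma 3.58.1 (R 4.3.3), adjusted by Benjamini and Hochberg, and the script was tested on simulated data. The brightest tested probe stood for a gene on a list. Symbols were updated through RefSeq (GRCm38.p6), with 22951 probes matched by accession, 6659 by current and 3109 by older symbol, and 8455 keeping the file's name. Bounds ("at least N-fold") divide the bright group's mean by a floor for the dim group, on each array the dimmest signal still well above background or the probe's own if that is higher. They hold only for the background subtraction used here. The normexp values of S100a14, Plau, Cldn4, Mmp8 and Acta1 lay below their bounds. Same-numbered arrays shared a slide, so each of 3 slides held 1 array of each diet. The number of arrays limits the precision.

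Members and lists were chosen with earlier results of these data known. Named genes are the 7 members, tested S100 genes, called partners and called neighbours within 250 kb with at least 2-fold change, the 2 most changed of each marker list and the 2 profiles nearest to each member. One gene that this rule names is not reported here. Others were named after their values were seen. Alternatives covered the background correction, scaling, dim-probe filter, slide, moderation, outlier spots, value table, 1 probe per gene and each array left out.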

Additional observations from a re-analysis of the deposited data

How the results depend on the processing

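Each of the 7 genes was refitted under 16 alternatives. In these 112 fits the direction never turned, and 104 stayed on the same side of the threshold. The other 8 were the lost calls of S100a1 (2 fits) and S100a13 (6 fits). The 4 rises were called in all 16. Genes called lower numbered 0 without the filter on dim probes and between 0 and 2 with an array left out. Probes called lower, 6476 in all, numbered 3661 without that filter, which adds dim probes to the fit, and 4108 to 6847 with an array left out, the fewest being 4108 when control 3 and 4234 when CFD diet 3 was dropped. The cause was not tested. With the slide as a replicate block, 4795 probes were called higher and 5500 lower, S100a1 and S100a13 kept their calls (adjusted p by limma = 0.0220 and 0.0424), and no call of the 7 changed. Deviations of the scaled values from the group means correlated between same-numbered arrays at 0.099, -0.081 and -0.001 across probes. By this measure the scaled values showed no shared deviation, but it rests on 3 arrays per group. Before scaling, slide 2 had the lowest 75th percentile of each group (404.1 for CFD diet and 365 for control). Sizes against dim controls depend on the background correction. With normexp the log2 fold changes of S100g, S100a14, S100a8, Plau, Plat and Plaur were 3.60, 0.72, 2.59, 0.68, 3.34 and 2.90, those of Tlr4 and Col1a1 0.54 and 3.05, and those of the like-profile genes Ltbp2, Fhl2, Bcl2a1c, BF472673 and Ehf 3.06, 2.77, 2.25, 2.13 and 0.89. Among markers, Cnn1 lost its call in 9 alternatives and Apoa1 in 6, and Epcam, Cldn4, Itgam, Mmp8, Retnlg and Acta1 changed by 2.22, 0.82, 1.05, 0.80, 1.20 and 0.54 with normexp.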

Other observations

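Several S100-named probes were too dim to test. S100b, a glial and Schwann cell gene, was well above background on 2 arrays of each group, with levels of 0.0342, 0.0271 and 0.0507 on the CFD diet arrays and 0.0151, 0.0122 and 0.131 on the control arrays. S100a5 was above background on 1 control array and no CFD diet array. S100a7a and S100a7l2, of the epidermal branch of the family, were above background on 0 of the 6 arrays.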
